A study of Mus musculus with 11 samples.

Results

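Upf2 and Eif4e2, a pair of genes that act on mRNA at the ribosome, were followed through a TRAP-Seq experiment on sleep loss in the mouse hippocampus. The members were the 2 rows uc008igc.1 (Upf2) and uc007bwl.1 (Eif4e2) of a count table of 63244 UCSC transcripts, and both were among the 29599 transcripts that had at least 1 count in at least 5 libraries. They had been picked with the contrast between the groups already in view, so their levels, fold changes and ratio are compared between the groups with no p-value. P-values for the members are given only for correlations of their levels with library measures, taken against the group means. Where the members are counted among called transcripts, the share of all transcripts stands beside the count and nothing is read from it. All libraries came from male CaMKIIα-Cre:RiboTag mice aged 2 to 3 months, in which Cre driven by the CaMKIIα promoter switches on a hemagglutinin-tagged copy of the ribosomal protein Rpl22, mainly in excitatory neurons. Sleep deprived (SD) mice were kept awake by gentle handling for 5 h from lights on, and control mice, not sleep deprived (NSD), were killed at the same time. The hippocampi of 2 mice were pooled for each library before ribosomes were pulled down through the tag, and there were 5 NSD libraries (labelled 2, 3, 4, 5 and B) and 6 SD libraries (labelled 1, 2, 3, 4, 6 and D).

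UPF2 is a core factor of nonsense-mediated decay, the surveillance pathway that destroys mRNAs on which translation stops too early. It bridges UPF1, the RNA helicase of the pathway, and UPF3B, which sits on the exon junction complexes that splicing leaves on an mRNA. EIF4E2, also called 4EHP, is a relative of the cap-binding translation factor EIF4E. It binds the cap but does not recruit the scaffold EIF4G, and together with GIGYF proteins it holds back translation of the mRNAs it is brought to. In neurons both kinds of control act on mRNAs that are transported and translated near synapses.

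Upf2 lies on the plus strand of chromosome 2 (mm10, chr2:5951469-6056703), and GENCODE vM21 lists 3 transcripts for it. Eif4e2 lies on the plus strand of chromosome 1 (mm10, chr1:87213914-87240488), with 8 listed transcripts. Neither locus overlaps another annotated gene on either strand. The stretches below are the amplicons of the study's PCR primers for the 2 genes, located in the GENCODE transcripts, and are shown because they mark where each mRNA was targeted. They run 5′ to 3′ on the mRNA strand, and capitals mark the forward primer site and the site of the reverse primer.
Upf2: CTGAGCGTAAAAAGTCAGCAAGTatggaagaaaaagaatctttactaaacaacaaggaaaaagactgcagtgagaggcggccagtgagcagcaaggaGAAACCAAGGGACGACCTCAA
Eif4e2: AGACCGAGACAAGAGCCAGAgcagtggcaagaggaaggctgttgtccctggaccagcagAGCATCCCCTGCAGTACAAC
The Upf2 amplicon has 118 bases, lies wholly in coding sequence of exon 2 (chr2:5957496-5957613) and is found in 1 of the 3 listed transcripts, Upf2-201. The Eif4e2 amplicon has 79 coding bases, joins exons 2 and 3 across an intron (chr1:87219659-87220961) and is found in 8 of the 8 listed transcripts.

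A read that fitted more than 1 UCSC transcript along its whole length was not counted, so each row holds only reads assigned to its transcript alone. Such reads may lie partly on bases shared with another transcript. In the GENCODE set, which is not the set used for counting, 45.4% of the 5174 bases of Upf2-201 were in no other listed transcript. For Eif4e2 that share was 73.8% for Eif4e2-201, 17% for another and 0 for 3 of the 8. A count of either row therefore stands for 1 transcript rather than for the whole gene, and the counts of the 2 rows are not levels per molecule.

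The depth of a library, as reads assigned to a transcript, ran from 22074914 to 29549339. Reads that were ambiguous between transcripts made up 37.2% to 52.0% of all tallied reads, and reads outside annotated transcripts 9.97% to 27.6%. Counted reads averaged 24023500 in NSD and 26790900 in SD (exact two-sided permutation test, p = 0.0649, and 0.195 adjusted over 3 library measures). The NSD 2 library stood apart from the other NSD libraries in its share of ambiguous reads. Each library was its own pool of mice, so the spread between libraries holds both the animals and the library preparation.

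Upf2 was more abundant on ribosomes after sleep deprivation in all SD libraries but SD 1, where the answer depended on how libraries were scaled. Its raw counts were 2667, 3004, 2798, 2973 and 2740 in the NSD libraries 2, 3, 4, 5 and B. In the SD libraries 1, 2, 3, 4, 6 and D they were 3613, 4174, 4051, 4157, 4590 and 4120. Every SD count was above every NSD count, before any allowance for the depth of the libraries.

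With upper-quartile normalization factors, which set libraries to a common upper quartile, Upf2 had 110.4, 129.8, 108.6, 124.5 and 114.1 CPM (counts scaled to a library of fixed size) in the 5 NSD libraries. It had 122.7, 176.5, 156.3, 167.0, 164.5 and 148.1 CPM in the 6 SD libraries. The groups overlapped through 1 SD library, SD 1, which lay below NSD 3 and NSD 5. The means were 117.5 ± 9.27 CPM (SD of the libraries, n = 5) and 155.8 ± 18.9 CPM (n = 6), which made the SD mean 32.7% higher.

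Scaled to counted reads alone, with no factors, Upf2 gave 120.8, 121.3, 121.0, 114.4 and 113.4 CPM in NSD. The SD libraries gave 146.4, 162.3, 167.8, 148.9, 155.3 and 143.3 CPM. On this scale the groups did not overlap, and the lowest SD library, at 143.3 CPM, stood clear of the highest NSD library, at 121.3 CPM. The means were 118.2 ± 3.94 and 154.0 ± 9.58 CPM, a difference of 30.3%.

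Eif4e2 differed less between the groups. Its raw counts were 1184, 1346, 1226, 1307 and 1283 in the NSD libraries, and 1395, 1542, 1456, 1636, 1713 and 1590 in the SD libraries. With upper-quartile factors it had 49.0, 58.2, 47.6, 54.8 and 53.4 CPM in NSD. It had 47.4, 65.2, 56.2, 65.7, 61.4 and 57.1 CPM in SD. The groups overlapped widely: 3 of the 6 SD libraries were at or below the highest NSD library, and SD 1 was the lowest of all 11 libraries. The means were 52.6 ± 4.32 and 58.8 ± 6.86 CPM, so SD was 11.9% higher, a difference of about the size of the spread within a group.

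Without factors, Eif4e2 ran from 50.3 to 54.4 CPM in NSD and from 55.3 to 60.3 CPM in SD. The groups then did not overlap, by a margin of 0.951 CPM, and the SD mean was 9.91% higher. The 95% counting intervals of neighbouring libraries across that margin overlapped. With TMM factors Upf2 did not overlap between the groups and Eif4e2 did.

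Counts of transcripts whose groups do not overlap, with SD higher, depend on the scale. They were 0.459% of the 29599 transcripts with upper-quartile factors, where 0 of the 2 members were among them. They were 0.811% with TMM factors, with Upf2 among them, and 1.38% without factors, with both members among them. In the other direction, with SD lower, the shares were 0.361%, 0.564% and 0.828%. The members were chosen on this contrast, and nothing is read from their count.

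**Figure D1:**
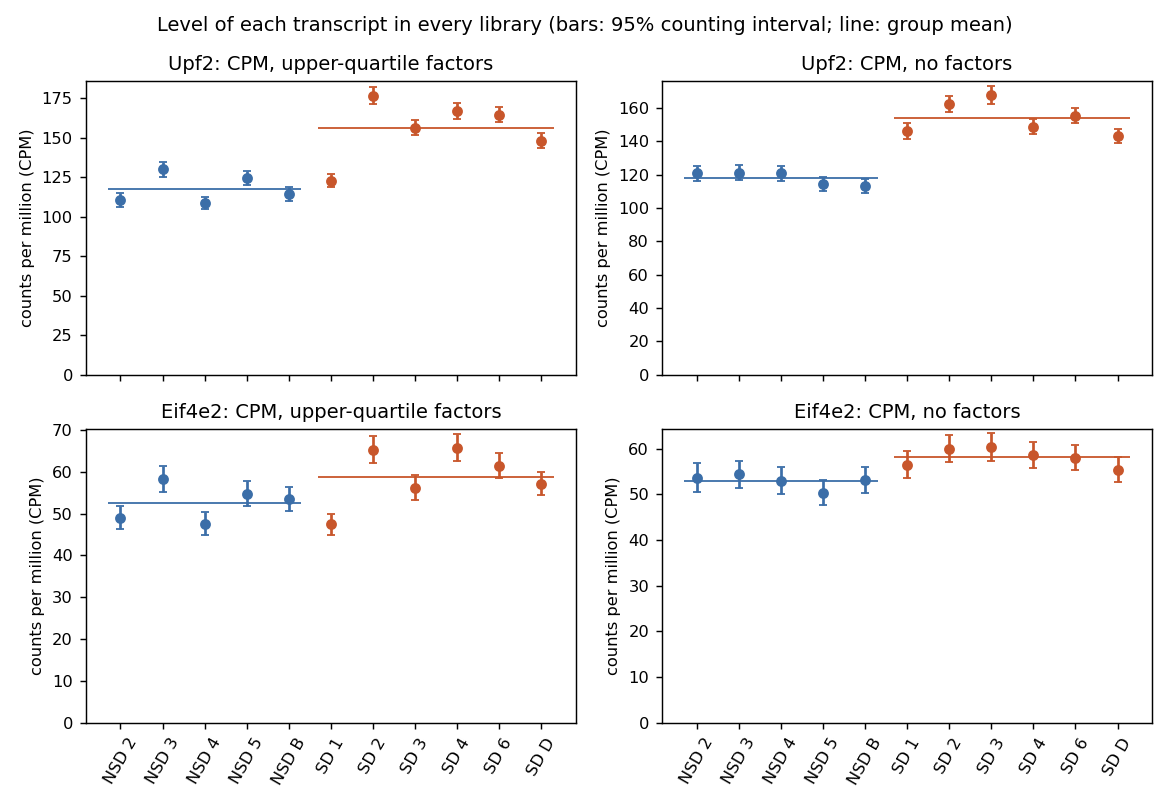
CPM of Upf2 (top) and Eif4e2 (bottom) in each library, with upper-quartile factors (left) and with no factors (right). Points are libraries (NSD blue, SD orange), bars are 95% counting intervals and lines are group means, and with no factors both groups tighten and separate, with Eif4e2 apart by 0.951 CPM.

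How far the libraries of a group differed depended on the scaling. With upper-quartile factors the spread was larger than counting gives and of like size for both genes. The coefficient of variation of Upf2 was 7.89% in NSD and 12.1% in SD, where counting alone would give 1.88% and 1.56%. For Eif4e2 it was 8.22% and 11.7%, against 2.81% and 2.54% from counting. Without factors the spread of Upf2 was 3.33% and 6.22%, and that of Eif4e2 was 2.91% and 3.34%, so Eif4e2 was close to its counting error and Upf2 was not. The biological coefficient of variation that edgeR fitted was 11.9% for each gene, near the 12.9% and 13.3% of the trend at their abundance and below the 25.3% median of all transcripts tested, and both rows were well counted (abundance ranks 1530 and 3006 of 29599).

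The ratio of the 2 rows within a library needs no library scaling. Upf2 counts over Eif4e2 counts were 2.25, 2.23, 2.28, 2.27 and 2.14 in the NSD libraries. In the SD libraries they were 2.59, 2.71, 2.78, 2.54, 2.68 and 2.59. All 6 SD libraries were above all 5 NSD libraries, SD 1 included, with 0.259 between the highest NSD and the lowest SD value.

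The mean ratio was 2.24 ± 0.0592 in NSD (SD of the libraries, n = 5) and 2.65 ± 0.0900 in SD (n = 6). The coefficient of variation was 2.65% in NSD and 3.40% in SD, while counting alone would give 3.38% and 2.98%. Libraries of a group thus differed in this ratio by about their counting error. On the log2 scale the ratio was 1.16 ± 0.039 in NSD and 1.40 ± 0.049 in SD, so the mean log2 ratio was 0.24 higher in SD.

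Such a separation was not particular to the choice of Eif4e2 as the partner. Of 15756 other transcripts with at least 10 counts in every library, 39% gave a ratio of Upf2 to that transcript that was higher in every SD library than in every NSD library, and 0.0317% one that was lower. With Eif4e2 as the denominator, the ratio was higher in every SD library for 0.432% of these transcripts, and lower in every SD library for 8.61%.

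**Figure D2:**
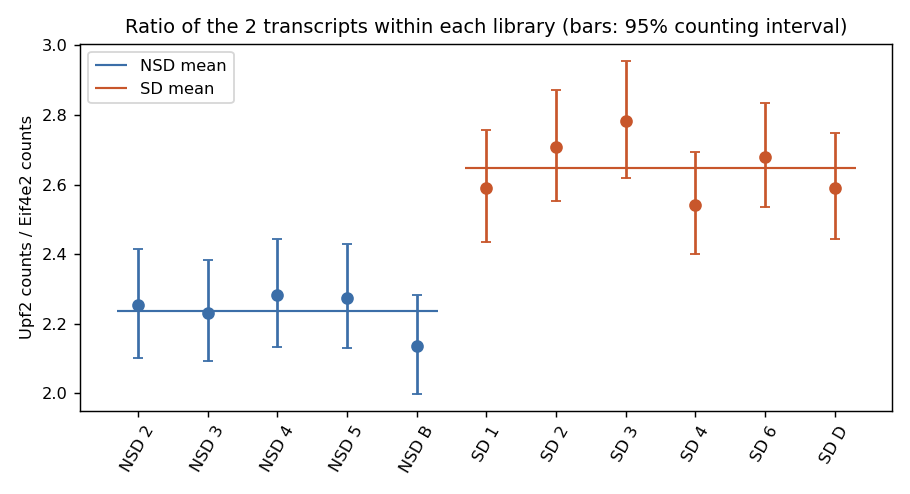
Ratio of Upf2 to Eif4e2 counts in each library, with NSD in blue, SD in orange, bars for the 95% counting interval and lines for the group means of 2.24 and 2.65. The axis does not start at 0, and the 6 SD points (2.54 to 2.78) all lie above the 5 NSD points (2.14 to 2.28).

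The normalized level of both members moved with a property of the libraries, and the share of all transcripts that did so was not computed. The 4 libraries with the most reads outside annotated transcripts (NSD 2 at 27.6%, SD 1 at 21.1%, NSD 4 at 17.3% and SD 3 at 16.8%) also had the 4 highest upper-quartile factors (1.09, 1.19, 1.11 and 1.07). A higher factor lowers the CPM of every transcript in a library. The share outside transcripts averaged 16.3% ± 6.88 in NSD and 14.1% ± 4.26 in SD (exact permutation test, p = 0.502), so it did not differ between the groups beyond their spread.

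Over the 11 libraries the log2 CPM of Eif4e2 fell with the share of reads outside transcripts (Pearson r = -0.778, Spearman rho = -0.791). Without NSD 2 and SD 1, the 2 libraries farthest from the median share, r was -0.762. Correlations over both groups hold the contrast on which the members were chosen, and are given with no p-value. With each value taken against its group mean, r was -0.791 (permutation p = 0.00386, adjusted 0.0232 over 6 relations). Against the group means and without NSD 2 and SD 1, a setting chosen after seeing the data, it was -0.926 (permutation p = 0.00028, adjusted 0.00168). The CPM hold the upper-quartile factor, which against the group means gave r = 0.839 with this share and -0.954 with Eif4e2. These p-values therefore cannot set the gene apart from its scaling. With no factors r against the group means was 0.0395 for Eif4e2 (permutation p = 0.913).

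For Upf2 the same relation was weaker across all libraries (r = -0.594, rho = -0.645) and clearer against the group means (r = -0.742, permutation p = 0.00981, adjusted 0.0294). Without NSD 2 and SD 1 the relation across all libraries was weaker still (r = -0.459). Against the group means it was still seen over the remaining 9 libraries (r = -0.832, permutation p = 0.00804, adjusted 0.0161). The upper-quartile factor gave r = -0.884 with Upf2 against the group means, so these p-values cannot set the gene apart from its scaling either. Without normalization factors r was -0.175 for Upf2 and -0.162 for Eif4e2, and against the group means Upf2 gave 0.0831 (permutation p = 0.807). Within NSD the ratio of the 2 genes was 2.25 in NSD 2, with the most reads outside transcripts, and 2.27 in NSD 5, with the fewest. Within SD it was 2.59 in SD 1, with the most, and 2.54 in SD 4, with the fewest.

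The share of ambiguous reads went the other way. Its correlation over both groups, again given with no p-value, was 0.690 with Eif4e2 (rho = 0.755) and 0.546 with Upf2 (rho = 0.591). Without NSD 2 and SD 1 these were 0.715 and 0.390. Against the group means they were 0.678 for Eif4e2 (adjusted permutation p = 0.0472) and 0.627 for Upf2 (adjusted 0.0702), and over the 9 libraries left without NSD 2 and SD 1 they were 0.915 (adjusted permutation p = 0.00195) and 0.8005 (adjusted 0.0184). Mean counted reads were 24023500 in NSD and 26790900 in SD, and the members were chosen on that contrast, so their correlation over all 11 libraries (0.708 for Upf2 and 0.685 for Eif4e2) draws on that choice and is given with no p-value. Against the group means r was 0.453 for Upf2 (adjusted permutation p = 0.160, rho = 0.364, adjusted 0.274) and 0.557 for Eif4e2 (adjusted permutation p = 0.0891, rho = 0.536, adjusted 0.113). Without SD 6 and SD D, the 2 libraries farthest from the median depth, these were 0.579 (adjusted permutation p = 0.101) and 0.704 (adjusted 0.0414). With no factors the correlations against the group means turned sign and did not pass, at -0.127 for Upf2 and -0.0919 for Eif4e2 with ambiguous reads (adjusted permutation p = 0.913 for each) and at -0.496 and -0.491 with counted reads (adjusted 0.381 for each).

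**Figure D3:**
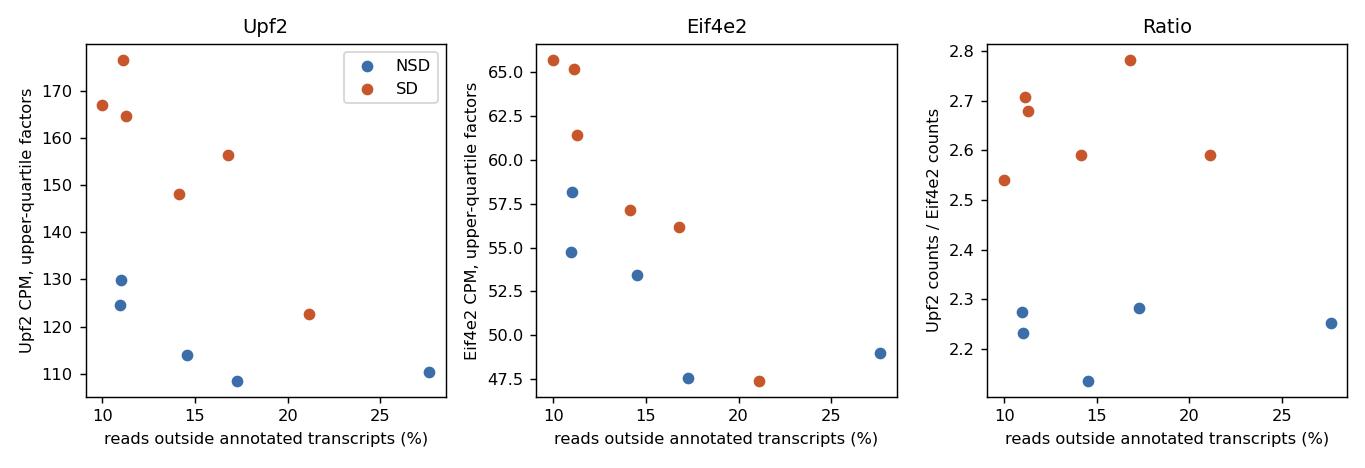
Upf2 CPM, Eif4e2 CPM (both with upper-quartile factors) and the ratio of their counts against the share of reads outside annotated transcripts, with 1 point for each library (NSD blue, SD orange). The CPM axes do not start at 0, both CPM panels fall from left to right, and in the ratio panel the SD points (9.97% to 21.1%) all lie above the NSD points (10.9% to 27.6%).

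In the edgeR fit over all 29599 transcripts, the log2 fold change in SD against NSD was 0.41 (SE 0.098) for Upf2 and 0.16 (SE 0.095) for Eif4e2. The median over all transcripts was 0.01. The quasi-likelihood test called 15 transcripts (0.0507%) at a false discovery rate of 0.05, 13 of them higher in SD (0.0439%) and 2 lower (0.00676%), and 0 of the 2 members were among them. In 9 of 23 other settings Upf2 was among those called, and these 9 called 58 to 311 transcripts (0.196% to 1.97% of those tested). Eif4e2 was called in 0 of the 23. The members were chosen on this contrast, so nothing is read from these calls. At an unadjusted p under 0.05 it called 4.45% of all transcripts. Over 23 other settings the log2 fold change ran from 0.36 to 0.52 for Upf2 and from 0.11 to 0.28 for Eif4e2, and it was above 0 in 23 of 23 for each.

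Leaving out SD 1, the SD library lowest in both genes with upper-quartile factors, gave 0.46 for Upf2 and 0.21 for Eif4e2. The low end of the range for both genes came from the fit with the share of reads outside transcripts as a covariate.

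**Figure D4:**
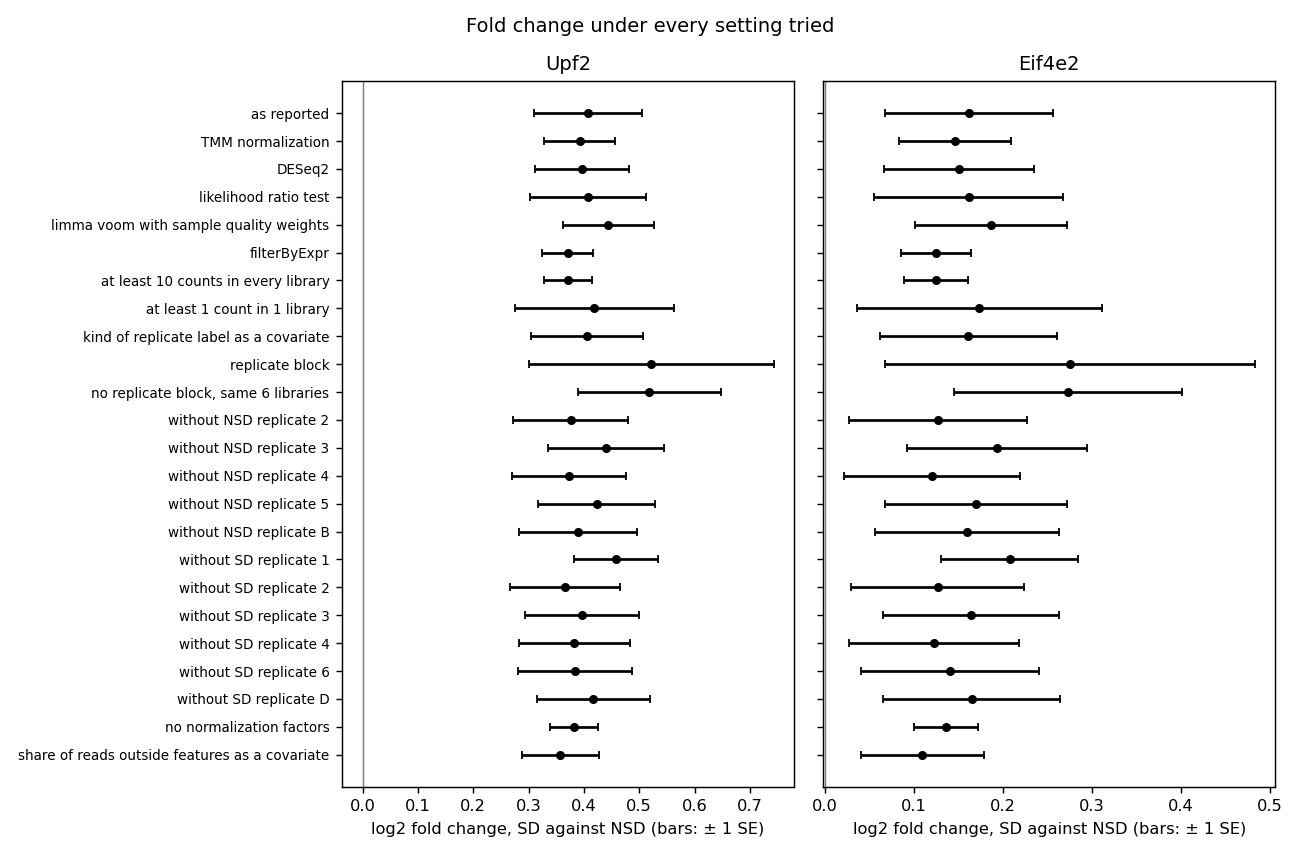
Log2 fold change of Upf2 (left) and Eif4e2 (right) in SD against NSD under the reported fit and 23 other settings, with bars of ± 1 SE. The axes differ between the panels, and all points are above 0, between 0.36 and 0.52 for Upf2 and between 0.11 and 0.28 for Eif4e2.

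The other genes of nonsense-mediated decay could be followed only where a transcript could be named. The names come from gene tables drawn up to describe the effect of sleep deprivation. The named transcripts are therefore not a fair sample of a pathway. Most of them did not differ past the threshold here: 2257 transcripts were named, and 15 of all transcripts passed a false discovery rate of 0.05 in the reported fit. Of 28 genes on the list, 8 had a named transcript, and UPF1, UPF3B and most SMG genes had none. All 8 transcripts had a log2 fold change above 0 in the reported fit, with a median of 0.18, and 0 of them passed a false discovery rate of 0.05. Of all 29599 transcripts, 15380 were above 0, the median was 0.01 and 0.0507% passed.

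Upf2 had the highest value of the 8. Next came Pnrc2, whose product links UPF1 to decapping, at 42.1 ± 4.18 CPM in NSD and 53.3 ± 6.95 CPM in SD and a log2 fold change of 0.34 (SE 0.10). Smg1, the kinase that phosphorylates UPF1, stood at 517.4 ± 42.1 CPM in NSD and 600.5 ± 64.0 CPM in SD (0.22, SE 0.10). The groups of libraries overlapped for both genes.

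The decapping genes Dcp1a and Dcp2 had log2 fold changes of 0.19 (SE 0.097) and 0.15 (SE 0.11). Magoh, a core part of the exon junction complex, had 0.17 (SE 0.10), and Ncbp2, the small subunit of the nuclear cap-binding complex, had 0.16 (SE 0.10). Gspt1, the release factor eRF3a, stood at 15.4 ± 1.62 CPM in NSD and 15.5 ± 1.22 CPM in SD, and its sign changed between settings (higher in 11 of 24, lower in 13).

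Cap-binding and mRNA-repression genes had values on both sides of 0. Of 31 listed genes 10 had a named transcript, with 11 transcripts in all, of which 7 had values above 0, 4 had values below 0, and 0 passed a false discovery rate of 0.05. Their median log2 fold change was 0.15, and the 15380 of 29599 transcripts above 0 are the background for these signs as well. Eif4e2 and Eif4e3, the third member of the cap-binding family, stood at 0.16 and 0.23 (SE 0.095), with Eif4e3 at 28.0 ± 2.40 CPM in NSD and 32.8 ± 3.72 CPM in SD. EIF4E itself had no named transcript.

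Gigyf2, the partner of EIF4E2 in repression, had few counts, at 6.96 ± 0.466 CPM in NSD and 8.38 ± 0.574 CPM in SD. All 6 SD libraries were above all 5 NSD libraries with upper-quartile factors (6.58 to 7.74 CPM against 7.81 to 9.07 CPM), a log2 fold change of 0.27 (SE 0.11). Without factors its groups overlapped (6.04 to 7.70 CPM against 7.19 to 9.74 CPM). With upper-quartile factors Gigyf2 was the 1 transcript of the 11 with all SD libraries higher, a pattern of 0.459% of all transcripts, and Cnot1 and Paip2 had all SD libraries lower, a pattern of 0.361%. Without factors Eif4e2 and Arih1 were higher in all SD libraries and Cnot1 was lower, and on the decay list Dcp1a was higher beside Upf2, where 1.38% of all transcripts were higher and 0.828% lower. Arih1, a ligase known to modify EIF4E2, had 254.4 ± 21.7 CPM in NSD and 273.6 ± 28.0 CPM in SD, a log2 fold change of 0.10 (SE 0.097).

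Values below 0 were those of Paip2, an inhibitor of poly(A)-binding protein (log2 fold change -0.67, SE 0.20), Eif4ebp1, an inhibitor of EIF4E (-0.48, SE 0.22), and Cnot1, the scaffold of the CCR4-NOT deadenylase (-0.38, SE 0.13), besides a transcript of Rps6kb1. These 3 were thinly counted, with NSD means of 2.30, 1.51 and 5.86 CPM. Tnrc6a, a silencing factor bound by Argonaute, was at 0.540 CPM in NSD and 0.768 CPM in SD (0.51, SE 0.26). Mknk2, a kinase of EIF4E, had 0.16 (SE 0.11). The S6 kinase gene Rps6kb1 had 1 transcript at 0.15 (SE 0.085), with 123.8 CPM in NSD, and another at -0.45 (SE 0.21), with 1.62 CPM.

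**Figure D5:**
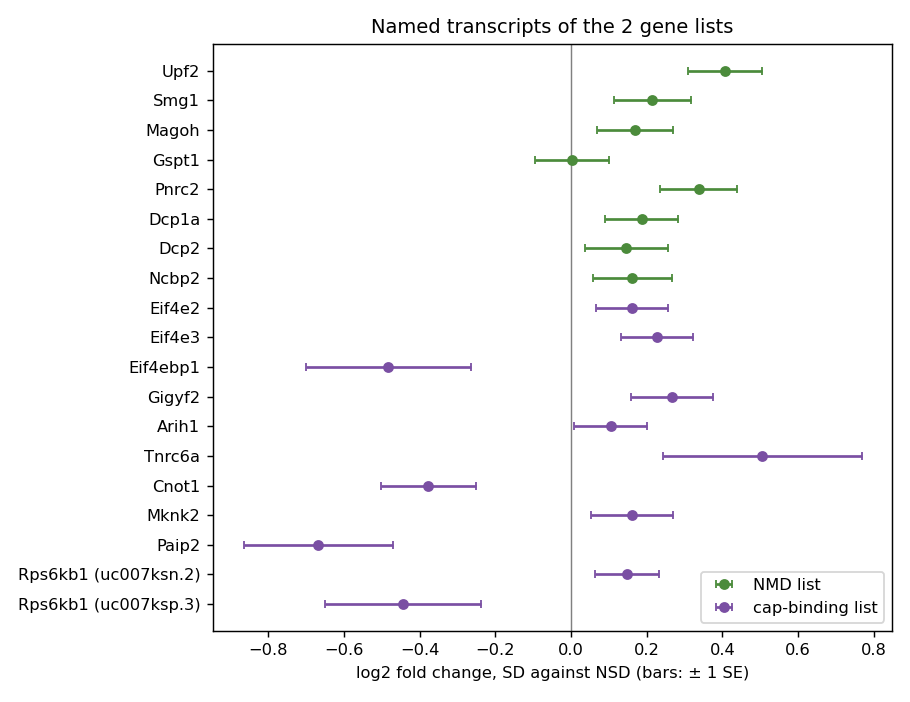
Log2 fold change in SD against NSD, with bars of ± 1 SE, for each named transcript of the nonsense-mediated decay list (green) and the cap-binding list (purple). The 8 decay transcripts lie between 0.00 and 0.41, and the 11 cap-binding transcripts spread from -0.67 to 0.51.

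Markers of other cells were read in the same libraries. The inhibitory-neuron markers had named transcripts for 3 of 9 genes (Gad2, Slc32a1 and Dlx2), and 5 of the 5 transcripts had log2 fold changes below 0, with 0 past a false discovery rate of 0.05. Of all 29599 transcripts, 14219 were below 0. Their summed level, that of the inhibitory markers, was 22.6 to 102.5 CPM in NSD (median 48.5) and 15.2 to 47.5 CPM in SD (median 18.6). Most of it was the Gad2 transcript uc008ink.1, with means of 53.9 CPM in NSD and 20.6 CPM in SD. Gad2 gave more than 1 of the transcripts, so they are not separate genes. None of the named markers was at 0. Excitatory markers, named for 3 of 7 genes, summed to 333.8 to 423.1 CPM in NSD and 306.9 to 480.2 CPM in SD. Most of that sum was Neurod2 (log2 fold change 0.20), while Camk2a (-0.41) and Emx1 (-0.16) were below 0, and 0 of the 3 passed. The named Camk2a transcript was thinly counted, at 2.51 CPM in NSD and 1.89 CPM in SD, and does not stand for the whole gene. The glial list, with Mbp as the 1 named gene of 12, ran from 167.4 to 194.8 CPM and from 178.2 to 229.8 CPM. The part of these differences in the members' levels was not tested, and the sources of such differences cannot be told apart in these pooled pulldowns.

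With upper-quartile factors the course of the 2 genes over libraries was close to that of many transcripts, and without factors it was close to that of few. With log2 CPM taken against the group means, Upf2 and Eif4e2 correlated at r = 0.959 over 11 libraries with upper-quartile factors and at 0.820 without factors. These are descriptions over libraries that share their scaling. Among 1997 named transcripts with at least 10 counts in every library, the closest to Upf2 were Atg12 (r = 0.981), Lin7c (0.975) and Pcgf3 (0.975), and the closest to Eif4e2 were Hrk (0.988), Prps1l3 (0.987) and Rmnd5a (0.986).

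Without factors the order changed except at the top for Upf2, where Atg12 (0.9497) was followed by Chrdl1 (0.948) and Insig2 (0.881). For Eif4e2 the closest were then Ccny (0.854), Yipf6 (0.846) and Zfp420 (0.837). The median r over 15756 transcripts was 0.506 with Upf2 and 0.542 with Eif4e2 under upper-quartile factors, and 0.0659 and 0.0111 without them. The share of these transcripts with r above 0.9 was 8.21% for Upf2 and 17.2% for Eif4e2 with the factors, and 0.0381% and 0.0190% without.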

How the data were processed

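TRAP-Seq libraries were labelled as CaMKIIα-Cre:RiboTag male hippocampus, NSD or SD. The authors trimmed the reads with Trimmomatic 0.36, aligned them to mm10 with STAR 2.7.5, counted them per UCSC transcript with HTSeq (intersection-nonempty) and deposited raw counts that are not normalized. Reads that could not be assigned to a single transcript went to an ambiguous tally. The strand setting of the counting is not given in the sources used here. The 5 tallies were left out of library sizes and tests. Transcripts were named by matching the statistics of an edgeR likelihood ratio fit to those of the study's gene tables, used as keys only: 2257 transcripts (2112 symbols) were named, 2 of them with 2 symbols. Coordinates are from GENCODE vM21 (mm10).

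SD was compared with NSD over 11 libraries with edgeR 4.0.16 (R 4.3.3): a filter of 1 or more counts in 5 or more libraries, upper-quartile factors, quasi-likelihood test, Benjamini-Hochberg adjustment. The procedure was tested on simulated data. These factors also scale the CPM values. Log2 CPM in correlations and the log2 ratio of each library were taken with no prior count. A prior count of 2 entered only the comparison of alternative settings with the reported one. Counting intervals are exact Poisson intervals at 95% (for the ratio, a binomial interval) and cover counting error only, since the libraries carry no molecular identifiers. Correlations used 100000 permutations (two-sided). Alternatives were TMM, DESeq2 1.42.0, the likelihood ratio test, limma 3.58.1 voom with sample weights, 3 filters, the kind of replicate label as a covariate, a replicate block, leaving out each library and, chosen after seeing the data, no factors, the share of reads outside transcripts as a covariate, and correlations that combine 2 of these steps. Transcripts were named in the text when they were members, on the decay or cap-binding list, or among the 3 most alike to a member; transcripts of the cell marker lists, and of a list of decay targets added after the data had been seen, were named as well. The members and lists were chosen with earlier results of these data known. The study's microarray and PCR data were not analysed here.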

Additional observations from a re-analysis of the deposited data

Results flagged for a closer look

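In 28 groups of values tested (the members' levels, their ratio and the library measures, each in NSD and in SD), 2 had a library at one end that was set far apart from the others, and chance alone gives about 1 in 20. Both were measures of the library NSD 2. Its share of ambiguous reads was 37.2%, where the nearest NSD library had 47.6%. Its share of reads that did not align uniquely was 12.3%, where the nearest had 6.09%. Neither the CPM nor the ratio of Upf2 and Eif4e2 had such a library, and NSD 2 had 110.4 CPM of Upf2, 49.0 CPM of Eif4e2 and a ratio of 2.25. Without NSD 2 the log2 fold change was 0.38 for Upf2 and 0.13 for Eif4e2.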

How the results depend on the processing

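Both members kept their direction in the 23 alternatives, and the difference in log2 ratio ran from 0.23 to 0.26. Leaving out each library gave 0.37 to 0.46 for Upf2, 0.12 to 0.21 for Eif4e2, 0 to 78 transcripts past a false discovery rate of 0.05 (78 without SD 1, 0 without SD D, 1 without NSD B, 2 without NSD 4, 19 without SD 2, of which 7 were higher and 12 lower, 8 without SD 3, 6 without SD 6) and 0 to 1 of the listed transcripts. Against 15 transcripts past it, and 0 of the listed ones, the counts were 62 and 1 with TMM, 135 and 1 with DESeq2, 65 and 1 with the likelihood ratio test, 58 and 1 with voom, 191 and 2 with filterByExpr, 311 and 3 with a minimum of 10 counts in all libraries, 271 and 3 with no factors, and 167 and 1 with the share outside transcripts as a covariate. Those listed were Upf2, Pnrc2 and Dcp1a. Upf2 was chosen on this contrast and nothing is read from its place among them. There were 33 past it with at least 1 count in 1 library, where 33.3% were higher in SD against 86.7%, and 8 with the label kind as a covariate. The share higher was 68.9% with DESeq2, 56.9% with the likelihood ratio test, 69.1% with filterByExpr, 64.3% with at least 10 counts, 75.3% with no factors and 50.9% with the outside share as a covariate.

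Same-numbered libraries did not deviate together (r = -0.535, -0.582 and -0.654 for numbers 2, 3 and 4). Libraries with unlike numbers gave r from -0.638 (NSD 2 with SD 4) to 0.656 (NSD 3 with SD 4). The deviations hold the upper-quartile factors, so these values cannot decide whether the numbers pair the libraries. With the replicate block, over 6 libraries, 6 transcripts passed, and the same 6 libraries without it gave 3. The block gave 0.52 for Upf2 and 0.28 for Eif4e2, and the same libraries without it 0.52 and 0.27.

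Correlations with counted reads were 0.453 (group means), 0.699 (without 2 libraries) and 0.450 (no factors) for Upf2, and 0.557 (group means) and 0.322 (no factors) for Eif4e2. With ambiguous reads Eif4e2 gave 0.715 without 2 libraries and 0.155 with no factors. With the share outside transcripts Upf2 gave -0.742 against group means and Eif4e2 -0.162 with no factors. With group means and without 2 libraries together, Upf2 gave 0.579 with counted reads, 0.8005 with ambiguous reads and -0.832 with the share outside transcripts. With no factors and group means together all 6 changed sign, none passing: counted reads -0.496 and -0.491, ambiguous reads -0.127 and -0.0919, outside share 0.0831 and 0.0395 for Upf2 and Eif4e2. The cause was not tested. Depth limits the thinly counted transcripts, such as Tnrc6a.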

Other observations

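RNAs known to be degraded by nonsense-mediated decay were looked at beside the members, from a list of 16 genes drawn up after the data had been seen. Of these, 6 had a named transcript, 4 with a log2 fold change above 0 in SD and 2 below, with a median of 0.36, and 0 passed a false discovery rate of 0.05 (edgeR quasi-likelihood test, 4 at an unadjusted p under 0.05, against 4.45% of all transcripts). Most names come from a table of the study on this same contrast. How its transcripts were picked was not tested, so nothing is read from these counts. Arc, an activity-regulated synaptic gene whose mRNA carries exon junction complexes after its stop codon, stood at 8.79 ± 2.43 CPM in NSD (SD of the libraries, n = 5) and 14.5 ± 3.61 CPM in SD (n = 6), a log2 fold change of 0.72 (SE 0.19). The stress genes Ddit3, Gadd45a and Gadd45b had 0.49 (SE 0.18), 0.34 (SE 0.13) and 0.37 (SE 0.13). Gas5, a noncoding RNA that hosts snoRNAs, had 14.8 to 39.0 CPM in NSD and 13.7 to 39.3 CPM in SD, a spread far larger than its log2 difference of -0.08 (SE 0.28). Hnrnpl, a splicing factor, had -0.15 (SE 0.077). The relation of their levels to Upf2 was not tested.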
